A study of Mus musculus with 2 samples.

Results

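Splice junctions that the deposited junction table does not mark as annotated, and that were each covered by at least 10 reads in both libraries, were described in adult mouse cortex. The table holds 1084159 junctions on mm9 with a read count for each of 2 libraries. The A flag is 0 in 901924 of them, and 13242 of those reached 10 reads in each library. The A flag behaves as an annotation mark: all 182235 junctions with A set are introns of the deposited Ensembl 65 exon table, and 0 of the 901924 others are. The members were chosen by their read counts in both libraries, so these counts are given as a description.

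The tissue came from C57BL/6J mice of 8 weeks and was labelled as cortical plate. Both libraries are biological replicates of this single untreated group, each from pooled male and female littermates, and no other condition exists. RNA was polyadenylated, above 200 nucleotides, and read in strand-specific pairs. The mm9 tables give 2 columns that are not tied to replicate numbers, and these are called the first and the second library below.

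Introns are removed between a donor at the 5′ end, which nearly always starts with GT, and an acceptor at the 3′ end, which ends with AG. A cell can leave an exon out, include a cassette exon, or move a donor or an acceptor by a few bases, and brain is known for using very short cassette exons called microexons in synaptic and cytoskeletal genes. An annotation lists only the introns seen in its source transcripts, so a junction outside it may come from a real transcript, from a near-identical copy of a gene, or from how a read was split over the genome.

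Junction reads totalled 39026825 in the first library and 38323842 in the second. The members took 2.82% and 2.91% of them. Of the junctions with A at 0, 672808 (74.6%) rested on 1 read. The median member had 52 reads over both libraries, against 208 for annotated junctions with at least 10 reads in each library. At the threshold, 1059 members had exactly 10 reads in their lower library, such as a Zfp451 junction with 10 reads in each library, and 1159 junctions just missed it with 9, such as one in Csnk1g3 with 51 and 9 reads. Cortical neuron markers were present in both libraries (Slc17a7 at 75.9 and 65.1 RPKM), as were oligodendrocyte and astrocyte genes. All 5 striatal markers were higher in the second library, by at least 1.15 (Ppp1r1b) on the log2 RPKM scale, and the hippocampal markers Dsp and C1ql2 were lower there by 4.63 and 2.23. The part of these marker differences in results between the libraries was not tested.

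A second flag, C, separated the members by the letters at their sites. C was 1 for 10238 members (77.3%) and for 99.7% of annotated junctions. Where a new site fell inside an annotated exon, its letters could be read from the matching GENCODE M21 transcript. With C at 1, all 999 new acceptors read AG and all 366 new donors read GT. With C at 0, only 1 of 10 acceptors read AG and 0 of 23 donors read GT, 19 of those reading GC. C is therefore used below as a mark of GT and AG ends in the reference letters.

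The members fell into groups by their place. Both sites were at annotated exon ends in 1915 members (14.5%), only the 5′ site in 2980 (22.5%), only the 3′ site in 3049 (23.0%) and neither in 5298. Within 1 gene, and apart from shifted copies of annotated introns, 1433 joined annotated sites, 2758 used an annotated donor with a new acceptor, 2699 used a new donor with an annotated acceptor, and 1289 used neither. A further 612 ran between 2 genes, 977 had 1 end in a gene, 462 lay opposite a gene and 1760 lay outside genes. C was 1 in 99.7%, 96.6% and 95.9% of the groups with an annotated site within 1 gene, but in 36.8% of those with neither site annotated.

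**Figure D1:**
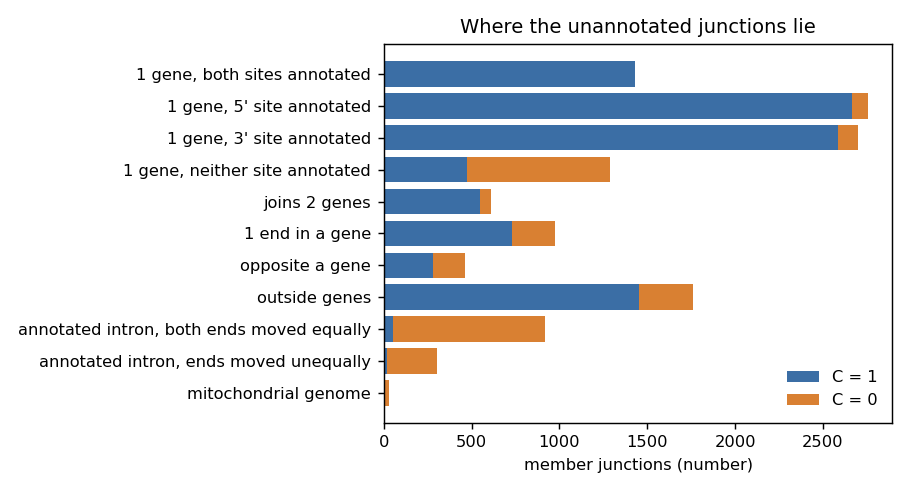
Number of member junctions (x axis) in each group by place and by annotation of their sites, split by the C flag. C is 1 for most members with an annotated site, and 0 for most shifted copies of annotated introns (864 of 918 where both ends moved equally).

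Pairs of members bounded stretches that are counted below as new internal exons. A new acceptor followed within 500 bases by a new donor of the same gene bounded 572 such exons in 480 genes, with a median length of 87 bases. Pairs were made by position alone. Overlap with an annotated exon was not checked, nor whether 1 RNA used both sites. Pairs that share a site count separately, and reads at both ends can differ widely. For a 363-base pair in Fxyd7, 22 and 27 reads entered and 810 and 954 left. Of these, 220 (38.5%) are in GENCODE M21 with the same exon length between introns of the same lengths, and 113 of the 220 lie wholly in coding sequence there. The exons below are printed because they are coding exons of M21 that the older annotation lacks, in genes of the synapse, adhesion, calcium handling and, for Mbnl2, splicing. Letters come from the M21 transcripts (GRCm38), matched by the lengths of the exon and both introns. Capitals mark the exon and lower case the 15 bases on each side in the mature RNA.
Ptprs: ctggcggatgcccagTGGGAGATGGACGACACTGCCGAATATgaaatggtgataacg
Rims2: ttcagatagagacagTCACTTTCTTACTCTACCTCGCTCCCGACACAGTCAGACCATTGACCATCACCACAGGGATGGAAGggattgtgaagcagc
Ank2: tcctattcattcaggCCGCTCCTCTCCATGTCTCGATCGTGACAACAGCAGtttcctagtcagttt
Ncam1: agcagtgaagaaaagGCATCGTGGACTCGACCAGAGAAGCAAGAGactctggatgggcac
Ryr2: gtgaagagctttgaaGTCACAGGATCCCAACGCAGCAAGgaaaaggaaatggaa
Robo2: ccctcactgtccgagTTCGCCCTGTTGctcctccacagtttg
Celsr3: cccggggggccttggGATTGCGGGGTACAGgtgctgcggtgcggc
Mbnl2: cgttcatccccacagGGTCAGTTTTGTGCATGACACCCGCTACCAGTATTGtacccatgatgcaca
Atp2b1: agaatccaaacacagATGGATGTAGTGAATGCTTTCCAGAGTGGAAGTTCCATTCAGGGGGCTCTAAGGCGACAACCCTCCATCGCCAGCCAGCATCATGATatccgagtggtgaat

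Ptprs, a receptor tyrosine phosphatase of synaptic adhesion, held a 27-base exon at chr17:56567214-56567240 (−, mm9) with 1020 and 805 reads in the first and second library into it, 985 and 768 out of it and 123 and 119 skipping it. Inclusion was computed from the average of the junctions in and out, divided by the sum of this average and the skipping reads. It was 89.1% and 86.9%. In Rims2, an active zone scaffold, a 66-base exon at chr15:39349352-39349417 (+) had 483 and 497 reads in, 305 and 412 out, and 106 and 97 skipping, which gave 78.8% and 82.4% inclusion. Most spliced reads over these introns took the exon in both libraries.

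Some exons missing from the older annotation were used almost always. The 24-base exon of Ryr2, a calcium release channel, at chr13:11726574-11726597 (−) had 293 and 233 reads in and 274 and 222 out, against 1 and 2 reads that skipped it. The 12-base exon of Robo2, the Slit receptor of axon guidance, at chr16:74009020-74009031 (−) was skipped by 2 and 4 reads, for 98.4% and 96.9% inclusion. The 15-base exon of Celsr3, an atypical cadherin of neuronal wiring, at chr9:108741091-108741105 (+) was skipped by 0 and 2 reads and entered by 210 and 147. The annotated form without the exon was the minor form in these 3 genes.

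Other coding cassette exons were used at middle levels. Ncam1, the neural cell adhesion molecule, included 30 bases at chr9:49358645-49358674 (−) in 68.9% and 68.4% of reads. Mbnl2, an RNA-binding regulator of splicing, included 36 bases at chr14:120802558-120802593 (+) in 73.1% and 66.9%. Ank2, a membrane-skeleton adaptor, included 36 bases at chr3:126673921-126673956 (−) in 27.2% and 27.8%.

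Atp2b1, a calcium pump of the plasma membrane, showed nested exons at chr10:98481912-98482065 (+) that share 1 acceptor. The acceptor had 1012 and 908 reads. Its donors after 154 bases, 152 bases and 87 bases had 1530 and 1463, 362 and 320, and 269 and 309 reads. A further donor after 114 bases had 20 and 21 reads. The lengths of 87 and 114 bases are multiples of 3 and the other 2 are not. Camk2g, the gamma subunit of calcium/calmodulin kinase II, held coding exons of 63 bases (61.8% and 68.3% inclusion) and 114 bases (38.8% and 43.0%).

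Exon length went with frame. Lengths were a multiple of 3 in 279 of the 572 exons (48.8%): 67.7% of the 62 exons of 3 to 27 bases, 62.2% of the 90 exons of 28 to 51 bases, and 43.1% of the 420 longer ones. Among all annotated internal exons the share was 40.1%. An annotated skipping junction existed for 524 exons, whose median inclusion was 22.5%, and 33 were included above 90%. Of the 524, the 210 that M21 also lists had a median inclusion of 38.4%, against 15.7% for the 314 it does not list. In-frame lengths made up 56.2% of exons included in 50% or more of reads, 53.4% of those at 10% to 50% and 41.3% of those under 10%. Inclusion in the 2 libraries differed by a median of 2.20 percentage points.

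**Figure D2:**
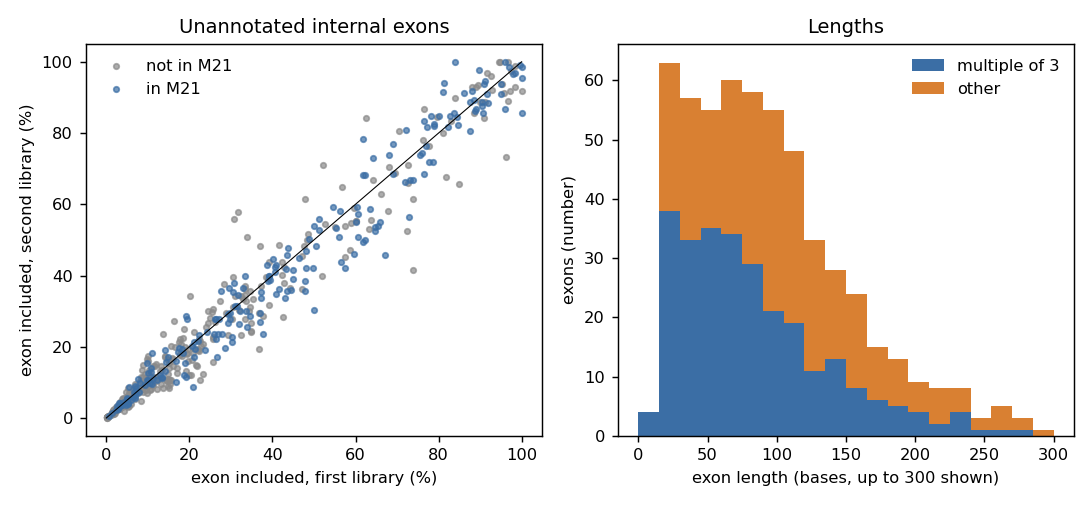
Left: percent inclusion of each unannotated internal exon with an annotated skipping junction in the first (x axis) and second library (y axis), with exons found in GENCODE M21 in blue, others in grey and the line of equality. Right: number of exons by length, where 67.7% of exons of 3 to 27 bases but 43.1% of those of 52 bases or more are a multiple of 3.

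The deposited transcript tables on mm10 use GENCODE M4 and give a partial second reading. Of the 220 exons in M21, 18 lie in a transcript whose identifier and version M4 also lists, and 17 of these transcripts had TPM above 0 in both replicates. The Rims2 transcript with the 66-base exon had 10.7 TPM in replicate 1 and 10.5 in replicate 2, or 61.9% and 64.1% of the gene. An Eloc transcript with a 164-base exon was listed at 0 in both. The median transcript held 6.95% and 7.81% of its gene. These shares concern whole transcripts and cannot be set equal to inclusion at 1 exon.

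Other new exons were not found wholly in coding sequence of M21. Meg3, a maternally expressed long non-coding RNA of brain, held a 184-base exon at chr12:110806621-110806804 (+) with 2469 and 2504 reads in, 2294 and 2294 out and 2623 and 2557 skipping. Its inclusion was 47.6% and 48.4%, and a shorter form of 113 bases with another donor had 302 and 336 reads at that donor. Srrm2, a spliceosome-associated protein, held a 95-base exon included in 39.4% and 38.7% of reads that M21 lists in a transcript marked for nonsense-mediated decay. Hnrnpa2b1, an RNA-binding protein of splicing, held a 136-base exon with 149 and 112 reads in and 488 and 490 out, against 7 and 11 skipping.

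Small shifts of a site formed the next large group. New acceptors lay within 100 bases of the annotated acceptor in 1516 of 2663 cases (56.9%), and new donors near the annotated donor in 768 of 2588 (29.7%). The new acceptor was exactly 3 bases downstream in 346 members and 3 bases upstream in 139, with 124 at 4 and 66 at 5 bases downstream. Donors were spread more widely, with 42 at 4 bases downstream and 22 at 6 bases upstream. Offsets were a multiple of 3 for 53.4% of the acceptors and 36.7% of the donors, and for 1091 of all 2284 (47.8%, Wilson interval 45.7% to 49.8%). Without offsets of 3 and 4 bases, a choice made after the data were seen, the share was 37.2%.

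**Figure D3:**
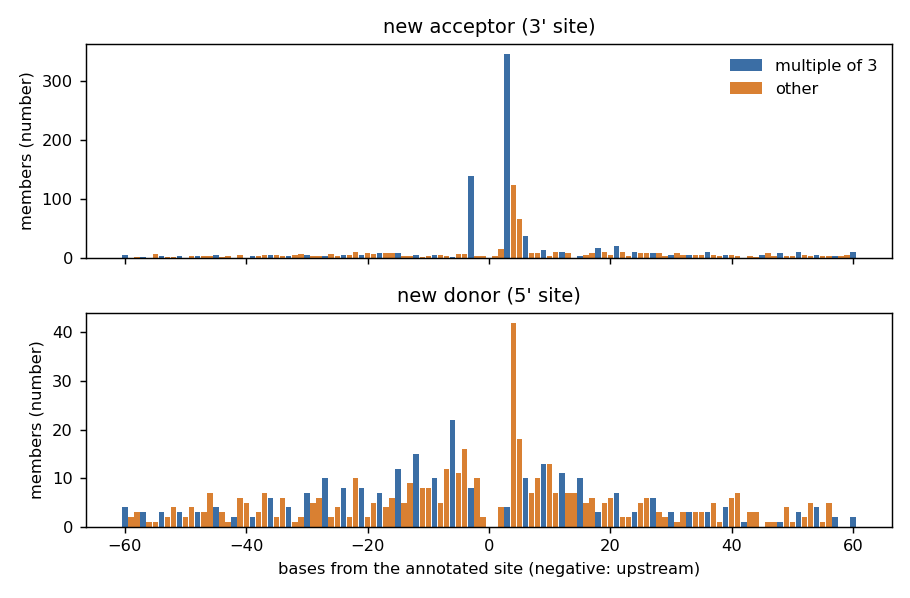
Number of members (y axis) at each distance of the new acceptor (top) or new donor (bottom) from the annotated site, within 60 bases and with multiples of 3 in blue. Acceptors peak at 3 bases downstream (346) and upstream (139), and donors at 4 bases downstream (42).

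The letters skipped by acceptors 3 bases downstream were read in 330 members with C at 1. They were CAG in 196 (59.4%), AAG in 84 (25.5%), TAG in 31 and GAG in 19. C at 1 marks AG ends, so only the first of the 3 letters was free to differ. The first 3 bases of exons after annotated junctions were CAG in 0.713% and AAG in 1.02% of 129793 cases. These exons were not chosen by such letters, so their shares are no test of the members. The stretches below are printed to show the exon letters at the shifted sites, and the letters of the introns beside them were not read. Capitals mark the bases between the annotated and the new site: for Sgta, Aak1, Rpl22l1 and Nyap1 they open the annotated exon and are left out by the member, and for Ddx17, Scg3 and Fxyd7 they close the annotated exon and become the start of the intron.
Sgta: CAGgagatgccacaggac
Aak1: CAGattcaagccccagtg
Rpl22l1: CAGaaagacaagaagcct
Nyap1: CAGaagaggacggtgccc
Ddx17: gcggcggaggaggggGTAAGG
Scg3: ctactgatagcaaaaGTAAGCTATTCCCAG
Fxyd7: gaaggcggattccagGTCTGAGAG

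Usage below is a member's reads as a percent of its reads plus those of annotated junctions at the shared annotated site. Aak1, a kinase of clathrin adaptors, split evenly, with 398 and 411 reads at the new acceptor and usage of 49.9% and 51.4%. In Sgta, a co-chaperone, the member took 75.4% and 73.7%. In Rpl22l1, a ribosomal protein paralog, the member had 398 and 433 reads and took 99.5% and 98.6%. In Nyap1 it took 99.8% and 99.7%, so the annotated acceptor was nearly unused in both libraries for these 2 genes.

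Larger shifts were among the members with most reads. In Sept5, a septin GTPase of synaptic vesicles, an acceptor 36 bases downstream at chr16:18623511-18624203 (−) had 5167 and 5486 reads, against 314 and 315 at the annotated one, for usage of 94.3% and 94.6%. In Mlf2 an acceptor 21 bases downstream had 2747 and 2813 reads, against 304 and 323 at the annotated one. Prpf19, a ubiquitin ligase of the spliceosome, used an acceptor 57 bases downstream in 1318 and 1426 reads (76.1% and 78.9%). The RNA helicase gene Ddx17 lost 6 bases at a donor in 1388 and 1251 reads (57.3% and 58.6%). Scg3, a protein of secretory granules, lost 15 bases in 1149 and 1139 reads (59.3% and 61.3%). The Na,K-ATPase regulator gene Fxyd7 lost 9 bases in 810 and 954 reads (33.3% and 33.4%).

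Most members that join annotated sites within 1 gene skipped annotated exons. Of 1429 with C at 1, both sites were in the same annotated transcript in 1217, and in the other 212 they were only in different transcripts. The 1217 left out 1 exon in 1091 members, 2 in 92, 3 in 22, and at most 7. The single skipped exon was a multiple of 3 in 40.1% of cases, the same share as over all annotated internal exons (40.1%). Epn1, an adaptor of endocytosis, had the most reads: 2808 and 2235 over a 75-base exon, or 92.1% and 89.7% usage. Skipping of the annotated exon was the main form there in both libraries.

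Mag, the myelin-associated glycoprotein of oligodendrocytes, skipped a 53-base exon in 965 and 1872 reads. The competing annotated reads were 235 and 359, so usage was 80.4% and 83.9%, with more reads of both kinds in the second library. The oligodendrocyte markers Mbp and Mog were higher in the second library, by 0.31 and 0.23 on the log2 RPKM scale. Their part in the Mag reads was not tested, and more cells of a type cannot be told apart from more RNA per cell in bulk tissue.

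Caly, a vesicle protein of neurons, skipped a 158-base exon in 1102 and 1002 reads (51.9% and 52.3%). Atp6v1h, a subunit of the proton pump, skipped 54 bases in 803 and 779 (79.1% and 82.1%). Camk2g skipped 69 bases in 838 and 722 (48.3% and 45.2%), and the microtubule protein gene Map4 skipped 222 bases in 484 and 446 (65.3% and 60.5%). The membrane-bending protein gene Bin1 skipped 108 bases in 379 and 405 (41.2% and 42.9%). Several Srp54c members had nearly the same reads as an annotated junction of a near-identical copy, and are uncertain.

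Members with more reads were more often in a later annotation. GENCODE M21 was searched by gene and by intron length at the shared site, with no coordinates carried between assemblies. It holds 2096 of 6453 members with C at 1 and a site that could be matched (32.5%). The share was 18.9% at 20 to 29 reads, 45.8% at 100 to 199 and 76.1% at 1000 or more. Lengths shifted by 7 bases matched in 0.387% and 0.232%. Junctions that missed the threshold, with 10 to 19 reads in all, matched in 14.1%. The Sept5, Mlf2 and Prpf19 sites above are in M21. The Epn1 skipping junction and the new Meg3 exon are not.

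**Figure D4:**
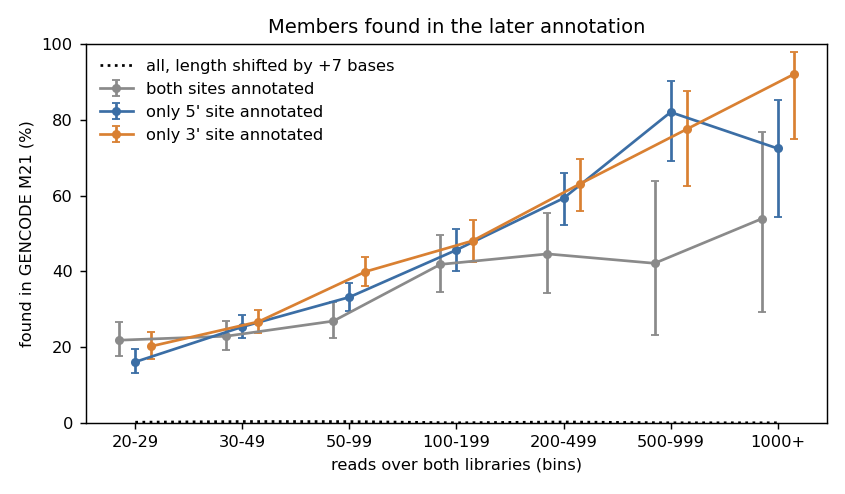
Percent of members found in GENCODE M21 (y axis, with 95% Wilson intervals) by reads over both libraries (x axis), for members with both, only the 5′ or only the 3′ site annotated. The share over all of them rises from 18.9% to 76.1%, and the dotted line is the rate for lengths shifted by 7 bases.

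Of the members with neither site annotated, many were annotated introns with both ends moved. In 918 members both ends were moved by the same 1 to 10 bases: 300 by 1, 400 by 2, 103 by 3 and 87 by 4. The annotated intron had 0 reads in 906 of them, and 889 were moved to the left on the chromosome. Glul, the glutamine synthetase of astrocytes, had 7828 and 7526 reads on an intron moved by 2 bases, at chr1:155751827-155753476 (+), and 0 on the annotated one. The annotated Glul junctions on either side had 5630 and 5624, and 6952 and 6590 reads. Sncb (beta-synuclein) had 3941 and 4230 reads, Pkm (pyruvate kinase) 3838 and 3908, Cdk5 (a neuronal kinase) 2997 and 3039, and Sf3b1 (a spliceosome subunit) 2703 and 2439, each with 0 on the annotated intron.

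Letters around these introns were read for 846 of the 918. Where the member lay 2 bases upstream in the transcript, the exon before the annotated intron ended in AG in 318 of 322 (98.8%), against 56.1% of annotated exons. At 3 bases upstream it ended in CAG in 75 of 85 (88.2%, against 23.9%). At 1 base downstream the next exon began with G in 200 of 214 (93.5%, against 49.04%). At 2 and 3 bases downstream it began with GC in 36 of 53 and GCA in 7 of 11, against 9.13% and 2.77%. At 1 base upstream the exon ended in G in 55 of 64 (85.9%), near the 81.2% of annotated exons. Where the intron repeats these exon letters, the spliced RNA is the same for either position, and read counts cannot tell the positions apart. Intron letters were not read, so such repeats were not seen directly. Among these 918 members C was 0 for 864.

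In a further 305 members the ends moved by unequal amounts. The member was 1 base shorter than the annotated intron in 117, and 3 to 27 bases shorter in another 117, of which 102 by a multiple of 3. An M21 exon of exactly the missing length splits an intron of the annotated length in the same gene for 58 of the 102 and 2 of the other 15. It does so for 0 of the 117 that were 1 base shorter. A match there would need a 1-base exon, so this 0 is no contrast to the others. No rate for shifted lengths was taken for this match. Psap, the lysosomal protein prosaposin, had 5850 and 5269 reads on an intron 9 bases short, at chr10:59758755-59761840 (+), and a 9-base exon of M21 splits an intron of the annotated length in this gene. The annotated Psap intron had 3904 reads in all, and another member 6 bases short had 1574 and 1550. Dnm1, the GTPase dynamin of synaptic vesicle recycling, had 3788 and 3276 reads on an intron 12 bases short and 5 in all on the annotated one. Snap91 and Unc13a, proteins of vesicle recycling and priming, had 1006 and 888, and 768 and 626 reads on introns 6 bases short, against 25 and 4 in all on the annotated ones. The part of short unplaced exons in the members of unequal shift was tested only through these M21 lengths.

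**Figure D5:**
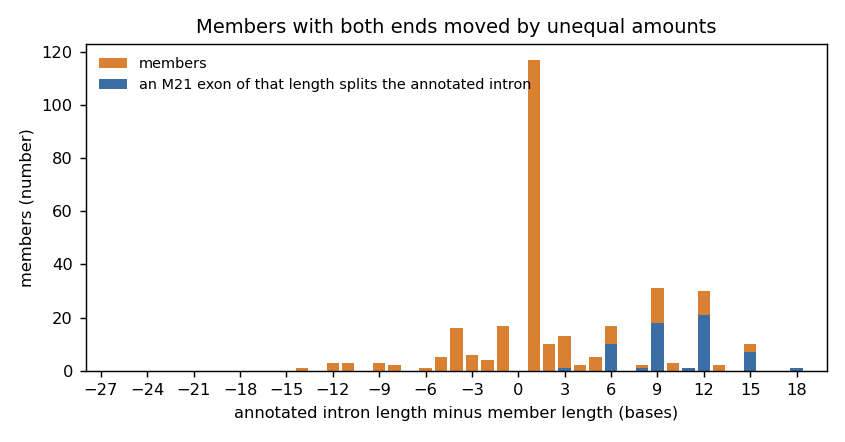
Number of members (y axis) by how many bases they are shorter than the annotated intron whose ends they nearly share (x axis; negative, longer). Members 6, 9, 12 and 15 bases short often have an M21 exon of that length (blue). The 117 that are 1 base short have none, but a match there would need a 1-base exon.

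Some members joined 1 gene to another. Of the 612, 480 had C at 1 and joined annotated sites of 236 gene pairs, and 201 of the 480 joined genes with the same symbol stem. Reads were within 1.25-fold of an annotated junction at a shared site in both libraries for 218 (45.4%). The Tuba1a and Tuba1b junction at chr15:98763272-98781899 (−) had 4721 and 4948 reads, and the annotated Tuba1b junction with the same acceptor side had 5031 and 5316. An alpha-globin junction from Hba-a1 to Hba-a2 had 2598 and 3041 reads, and the Hba-a2 intron 2598 and 3044. Scd3 to Scd2, desaturases of fatty acid synthesis, had 4197 and 4946. The deposited counts do not say how reads that fit several copies were assigned, so these links between genes are uncertain.

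Junctions with no shared stem and reads unlike an annotated junction included Acss2 to Gssos2 (68 and 74 reads). The neighbouring corepressor genes Aes to Tle2 were also among them (89 and 57, for usage of 1.70% and 1.17%). A Ndrg3 to Gm14278 junction over 32063 bases met the same terms, with 2341 and 2230 reads. The annotated reads at its shared site were 2901 and 3011. Another junction between annotated sites of Ndrg3 and Gm14278, with 934 and 1051 reads, did have reads like an annotated junction. A stem cannot reveal a copy with an unlike symbol, so the Ndrg3 link is uncertain too. A T-cell receptor beta junction from Trbj2-3 to Trbc2 had 161 and 145 reads.

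Outside genes, members gathered in loci. Leaving out members with C at 0 and 65 of 100000 bases or more, the other 1390 were grouped. Those that overlapped or lay within 5000 bases on a strand formed 579 loci, and 121 loci of 3 or more held 823 members. The locus with most members had 114 at chr7:66565097-66773921 (−), with 12356 and 10831 reads. It starts just past Ube3a, an imprinted ubiquitin ligase that runs on the other strand at chr7:66484122-66562097. In the 565290 bases between Ube3a and ENSMUSG00000000948 there were 162 members on the minus strand with 15006 and 13205 reads, and 0 annotated junctions. C was 1 for 160 of them. The annotation lists 166 genes under 100 bases on that strand, and 104 of these small genes lay inside a member intron. A further 8 members ran opposite Ube3a itself, with 559 and 417 reads.

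Several host genes held many members with C at 1, which are counted here. Firre, a long non-coding RNA from the X chromosome, had 49, of which 38 with neither site annotated, with 3425 and 3236 reads in all. ENSMUSG00000091793 on chromosome 12 had 29. Snhg11, a small RNA host gene, had 10 of its 20 members in this count, of which 1 alone held 4477 and 4092 reads. Ank3, the ankyrin of the axon initial segment, had 17 of its 18, each with 1 annotated site. Pcdhgc4, in the clustered protocadherins, had 15, and 13 of these entered the same acceptor.

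Other members had lengths in steps of a repeat. All 76 members in Dlgap2 lay in chr8:14306712-14307329 and had lengths within 2 bases of a multiple of 31. C was 1 for only 3 of these 76. Which repeat unit a read came from cannot be told from the table.

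Genes with more reads held members more often. Among 8600 genes with at least 1 RPKM in both libraries, 3162 (36.8%) held a member with C at 1. A wider set of genes, not limited to these 8600, was grouped by annotated junction reads. There the share ran from 9.10% of 6285 genes at 1 to 1000 reads to 73.8% of 386 genes above 30000. Lists chosen with earlier results known are set beside this: cytoskeleton 21 of 25 genes, postsynaptic scaffolds and kinases 19 of 24, vesicle and active zone genes 25 of 33, myelin genes 9 of 12, splicing factors 35 of 55, astrocyte genes 7 of 11, sodium and calcium channels 14 of 23, glutamate receptors 10 of 20, synaptic adhesion genes 10 of 25 and long non-coding RNAs 3 of 5. The lists also differ in reads, from a median of 3171.5 annotated junction reads for glutamate receptors to 38668 for astrocyte genes, so the counts say nothing particular to a list.

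Within the lists the levels were spread widely. Rbfox2, a splicing factor, had a new donor with usage of 81.2% and 84.8%. Ptbp2, a neuronal polypyrimidine tract-binding protein, had a new acceptor with usage of 57.7% and 45.1%. Qk, a factor of myelin RNA processing, joined annotated sites in a new way in 616 and 520 reads (60.6% and 54.7%). Amph, a partner of dynamin, had 353 and 369 reads at a new donor (59.2% and 61.3%), and Homer2, a postsynaptic scaffold, 101 and 103 at a new acceptor (58.0% and 64.0%). The abundant vesicle genes Snap25 and Vamp2 had usage of 1.25% and 1.52%, and 0.515% and 0.260%.

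Usage was low for most members. Over 6398 members with C at 1 inside a gene and at least 20 informative reads in each library, the median was 11.6%, 46.1% were under 10%, 12.6% were above 50% and 2.36% above 90%. A difference between the libraries was tested with a two-sided Fisher's exact test per junction, adjusted by Benjamini-Hochberg over all 170826 junctions tested. It called 54 junctions (0.0316%) at 0.05, and 5 of 7490 members tested (0.0668%) against 39 of 31757 annotated junctions (0.123%). The test compares 2 libraries and no conditions. It treats reads as independent and uses the read counts that chose the members, so its calls are a description of these libraries. With the noise scaled to the observed spread over all junctions tested, 0 members and 10 annotated junctions were called. An unadjusted p under 0.05 was found for 670 members (8.95%), near the 8.72% of annotated junctions, against 3.82% of all junctions tested.

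All 5 members called without that scaling were higher in the second library, and none of them was called with it (adjusted values of 0.516 to 0.689). Epb41l3, a membrane-skeleton protein, had 16 and 63 reads at a new donor, or 7.58% and 22.5% usage. Dtnbp1, a subunit of an organelle-sorting complex, had 34 and 84 reads (5.80% and 14.7%). Adgrb1, an adhesion G protein-coupled receptor of brain, had 706 and 927 (26.0% and 32.4%). Cspg5, a brain proteoglycan, had 2978 and 3188 at a donor that cuts 81 bases from its exon (78.6% and 82.8%), and M21 lists this junction. Calm2, a calmodulin gene, had 59 and 109 (1.43% and 2.94%).

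Read counts differed by over 2-fold for more members than annotated junctions. Higher counts in the second library were found for 376 members (2.84%), against 0.781% of annotated junctions with at least 10 reads in each library. Higher counts in the first were found for 225 (1.70%), against 0.71%. The members also had fewer reads than annotated junctions, whose part in this was not tested. The share higher in the second library was 6.82% with C at 0 and 1.67% with C at 1. A 33-base junction inside Peak1 had the most reads of any member, 8268 and 23789, with C at 0. Peak1 itself was at 0.820 and 0.756 RPKM, with 256 annotated junction reads in all. C was 1 for 0 of its 19 members. Penk, the opioid precursor proenkephalin, had 113 and 490 reads at a new acceptor with C at 1, while its annotated junctions had 171 and 782. A Drd2 intron moved at both ends had 10 and 239 reads, and Drd2, a dopamine receptor of striatum, was at 0.0798 and 1.37 RPKM.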

How the data were processed

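Junctions, their read counts (whole numbers) and the A and C flags were read from the deposited mm9 junction table, whose columns were not assigned to replicates. That table's last column, taken as an irreproducibility score, was deposited without a header. Exon ends, gene spans and RPKM came from the mm9 tables the authors made with Ensembl 65, per the deposited notes. Expected counts and TPM per replicate came from the deposited mm10 tables with GENCODE M4, per the file headers and notes. The aligner is not given in the sources used here. Each gene was listed on a pair of identical lines, of which 1 was kept.

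A site was annotated when it matched an exon end exactly on its strand. Displaced introns had both ends moved by at most 10 bases. New exons had at most 500 bases and were paired by position alone. Competing reads came from A = 1 junctions at the shared annotated site, or the site with more where both were annotated. Fisher's exact tests used junctions with at least 20 informative reads in each library. On simulated counts for 170826 junctions the test recovered 32% and 89% of changes of 2-fold and 4-fold odds, with 2 unchanged junctions called. The simulated counts held binomial noise only, whereas the chi-square values of the data were spread by a factor of 1.66. Changes were placed only at deeper sites with middle shares. The simulation therefore does not give the recovery or the false calls of the test on the members. Wilson intervals are at 95%, and they cover counting error only, since reads carry no molecular identifiers.

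M21 was used by lengths, gene identifiers and transcript letters, never by position. Members were named by most reads or highest usage in each class, by gene list and by nearness to the threshold. Members and lists were chosen with earlier results of these data known, and the displaced classes, the C split and the letters searched were chosen after the data were seen. Alternatives changed read and coverage minimums, exon tables and site matching. Contigs were not used here, and assembled transcript models entered only through their exon ends in an alternative. Python 3.11.15, pandas 2.3.3, numpy 2.4.6, SciPy 1.17.1 and matplotlib 3.10.9 were used.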

Additional observations from a re-analysis of the deposited data

How the results depend on the processing

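No paired analysis was possible because the 2 libraries are 1 group with no contrast. With at least 5 or 20 reads in each library there were 23570 or 7335 members, and 1100 or 302 new exons; with 10 reads asked of 1 library alone, 16746 to 16992 members. At 20 reads the shares with both, only the 5′, only the 3′ and neither site annotated were 13.6%, 21.6%, 21.4% and 43.5%. Adding the exon ends of the assembled models gave 37.8%, 18.9%, 18.9% and 24.4%. Whether those models were built from these same reads was not checked. Matching within 1 base gave 17.5% for both and 36.0% for neither. With C at 1 alone, added after seeing the data, the shares were 18.7%, 28.1%, 28.5% and 24.7%, and without displaced introns, also added, 15.9%, 24.8%, 25.3% and 34.1%. With 1 library alone the share with both sites was 14.4% to 14.5%, and with neither 39.3% to 41.0%. Offsets were a multiple of 3 in 53.8% within 30 bases, 54.0% at 20 reads and 37.2% without offsets of 3 or 4 bases. The 5 usage differences became 11 with all competing junctions, 2 at a threshold of 0.01 and 0 with noise scaled to the observed spread. The median usage was 9.81% with at least 50 informative reads and 11.1% with all competing junctions. Of 55 alternatives run, 24 moved their value by less than its interval or kept a count within 1.5 times, and 31 did not. The 24 include the number of members and the share with both sites for 1 library alone. Depth limits what can be said of usage for members near 10 reads.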
